A study of Mus musculus with 12 samples.

Results

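The genes described here are 10 genes of autophagy and its cargo receptors: Sqstm1 (the gene of p62), Nbr1, Optn, Map1lc3a, Map1lc3b, Gabarapl1, Ulk1, Wipi1, Atg5 and Atg7. They were chosen by name, with earlier results of these data known, and all 10 were found among the 20844 genes listed in both deposited tables. The study sequenced RNA of primary fibroblasts, isolated from mouse embryos on day 13.5 to 14.5 of development, in 12 libraries, 3 in each of 4 groups. The Nrf2 cells were homozygous for a silenced allele that expresses the missense mutant NRF2 D29H once Cre recombinase has acted. Infected with empty adenovirus they are labelled Nrf2 knockout, and infected with adenovirus carrying Cre they are Nrf2 D29H. The Keap1 cells were homozygous for an allele that acts as wild type until Cre switches it to the missense mutant KEAP1 R554Q. With empty adenovirus they are Keap1 wild type and with Cre adenovirus Keap1 R554Q. Virus was given at a multiplicity of infection of 500, and RNA was collected 4 days later from all groups. No group of wild-type cells with Cre was included, so Cre itself and the mutant allele cannot be told apart within either pair of groups. The labels do not say whether replicates came from separate cultures or embryos, so p-values measure the spread between these samples, which may be technical.

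Autophagy encloses cytoplasm in a double membrane, the autophagosome, and delivers it to the lysosome. The ULK1 kinase starts the process, WIPI proteins bind the lipid made at the growing membrane, and ATG7 and ATG5 act in the conjugation reactions that attach the small ATG8 proteins, among them LC3 and GABARAPL1, to that membrane. Cargo receptors such as p62, NBR1 and optineurin bind ubiquitin on one side and ATG8 proteins on the other. p62 has a further role in the KEAP1 and NRF2 pathway: it binds KEAP1 in the place where NRF2 binds, and its own gene is a known NRF2 target. NRF2 is the transcription factor of antioxidant and detoxification genes, and KEAP1 is the adaptor that marks it for degradation. Messenger RNA levels do not measure autophagic flux, which was not assayed here.

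Between 14963004 and 23818477 reads were counted per library, fewest in labelled knockout replicate 3. Mitochondrial genes took 0.982%, 1.77% and 1.06% of the reads in D29H, without overlap with the labelled knockout (0.725% to 0.904%), and 0.807% to 1.09% in the Keap1 libraries; their part in the Nrf2 comparison was not tested. Nqo1, a quinone reductase and a standard NRF2 target, was measured as a reference: its log2 fold change with Cre was 3.74 in the Nrf2 cells and 3.41 in the Keap1 cells. Nfe2l2, the gene of NRF2, was still read in the labelled knockout at 40.2 to 46.5 CPM (read counts scaled by library size and by TMM factors over all 12 libraries), against 49.6 to 57.1 in D29H, so the RNA level does not by itself check that label. Fibroblast markers summed to 19179 to 20748 CPM in the labelled knockout, 16898 to 17636 in D29H, 14791 to 17119 in Keap1 wild type and 14618 to 15896 in R554Q. Markers of macrophages, cells rich in lysosomes, were all above 1 CPM on average in each group and none was at 0: the 10 together summed to 178 to 205 CPM in D29H, 155 to 198 in the labelled knockout, 81.7 to 95.7 in R554Q and 109 to 120.0 in Keap1 wild type. Between the Keap1 groups the difference lay mostly in Lyz2 (47.9 CPM on average in R554Q, 69.5 in wild type), while Cd68, Csf1r and C1qc were slightly higher in R554Q. Neural markers summed to 68.7 to 76.1 CPM in R554Q and 61.0 to 68.4 in Keap1 wild type, and to 56.0 to 63.1 in the Nrf2 cells. Muscle markers summed to 9.16 to 10.3 CPM in R554Q and 11.96 to 14.5 in Keap1 wild type, and to 12.03 to 16.6 in the Nrf2 cells. Only 2 of the 3 muscle markers were listed in both tables, and 1 of these averaged under 1 CPM in each group. Epithelial markers summed to 5.26 to 7.35 CPM in the Keap1 cells and 2.20 to 4.32 in the Nrf2 cells, and endothelial markers to 14.9 to 23.1 over all libraries. Of the 5 epithelial markers 3 to 4 averaged under 1 CPM in each group, and 1 was at 0 in the labelled knockout. Of the 4 endothelial markers 2 to 3 averaged under 1 CPM in each group. The macrophage and epithelial sums did not overlap between the cell stocks, and the macrophage, neural and muscle sums did not overlap between the Keap1 groups. Between the Nrf2 groups the fibroblast sums did not overlap. Their part in the results was not tested.

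For the 3 genes that passed the test in the Keap1 cells, Sqstm1, Ulk1 and Atg5, the 250 bases before the RefSeq start site (mouse GRCm38.p6) are shown 5′ to 3′ on the gene's strand, in lower case. Capitals mark matches, on either strand, to GGGCGG (a GC box) or CACGTG (the E-box bound by TFEB and TFE3 among other factors). The window of Sqstm1 is chr11:50210821-50211070 on the minus strand, that of Ulk1 chr5:110810082-110810331 on the minus strand, and that of Atg5 chr10:44268089-44268338 on the plus strand.
Sqstm1: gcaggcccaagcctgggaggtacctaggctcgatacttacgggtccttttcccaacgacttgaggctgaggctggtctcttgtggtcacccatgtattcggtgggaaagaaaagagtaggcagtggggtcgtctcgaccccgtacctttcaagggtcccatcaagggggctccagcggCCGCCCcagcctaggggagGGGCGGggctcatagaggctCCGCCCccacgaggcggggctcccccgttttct
Ulk1: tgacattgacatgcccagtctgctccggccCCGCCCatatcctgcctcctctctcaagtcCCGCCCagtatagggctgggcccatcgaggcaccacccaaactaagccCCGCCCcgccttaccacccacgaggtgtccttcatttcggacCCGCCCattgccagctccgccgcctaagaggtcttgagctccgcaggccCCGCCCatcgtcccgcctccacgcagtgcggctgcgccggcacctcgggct
Atg5: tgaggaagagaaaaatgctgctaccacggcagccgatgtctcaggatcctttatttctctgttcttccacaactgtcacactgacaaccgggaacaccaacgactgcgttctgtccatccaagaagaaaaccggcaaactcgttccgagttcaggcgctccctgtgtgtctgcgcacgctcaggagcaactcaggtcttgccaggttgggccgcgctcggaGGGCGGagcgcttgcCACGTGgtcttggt

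The Sqstm1 window held 3 GC boxes, that of Ulk1 5, and that of Atg5 1 GC box and 1 CACGTG. Over 9 of the 10 genes (10 windows, Nbr1 having a pair), CACGTG occurred in Atg5 and Atg7, against 6.02% of 32817 mouse promoter windows of the same length, and a GC box in 7 of the 10 windows (those of Sqstm1, Map1lc3b, Gabarapl1, Ulk1, Atg5, Wipi1 and Optn), against 32.7%. The Atg7 window, chr6:114670846-114671095, precedes a RefSeq start that lies inside the gene's bounds in the deposited tables, downstream of the start listed there. The core of the antioxidant response element to which NRF2 binds, TGACNNNGC, was in 0 of the 10 windows and in 10.2% of all promoter windows. These matches describe the letters in these 250 bases only and say nothing of sites elsewhere in the genes.

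The level of each gene per transcript length was compared as the authors' FPKM (reads scaled by transcript length and library size). Sqstm1 was the most abundant of the 10 in each of the 4 groups, with a mean FPKM of 103 ± 10.7 (SD, n = 3) in the labelled knockout and 191 ± 9.16 in R554Q. Map1lc3a was next in each group (96.0 to 104). Map1lc3b (58.3 to 71.1) and Gabarapl1 (40.9 to 75.9) followed, exchanging places in R554Q. Wipi1 (13.9 to 19.1), Atg5 (15.01 to 18.6), Nbr1 (10.1 to 12.8) and Ulk1 (9.58 to 12.2) lay lower, then Atg7 (4.86 to 6.77), and Optn was lowest in each group (3.33 to 3.87). All 10 genes passed the filter on low counts in every fit.

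**Figure D1:**
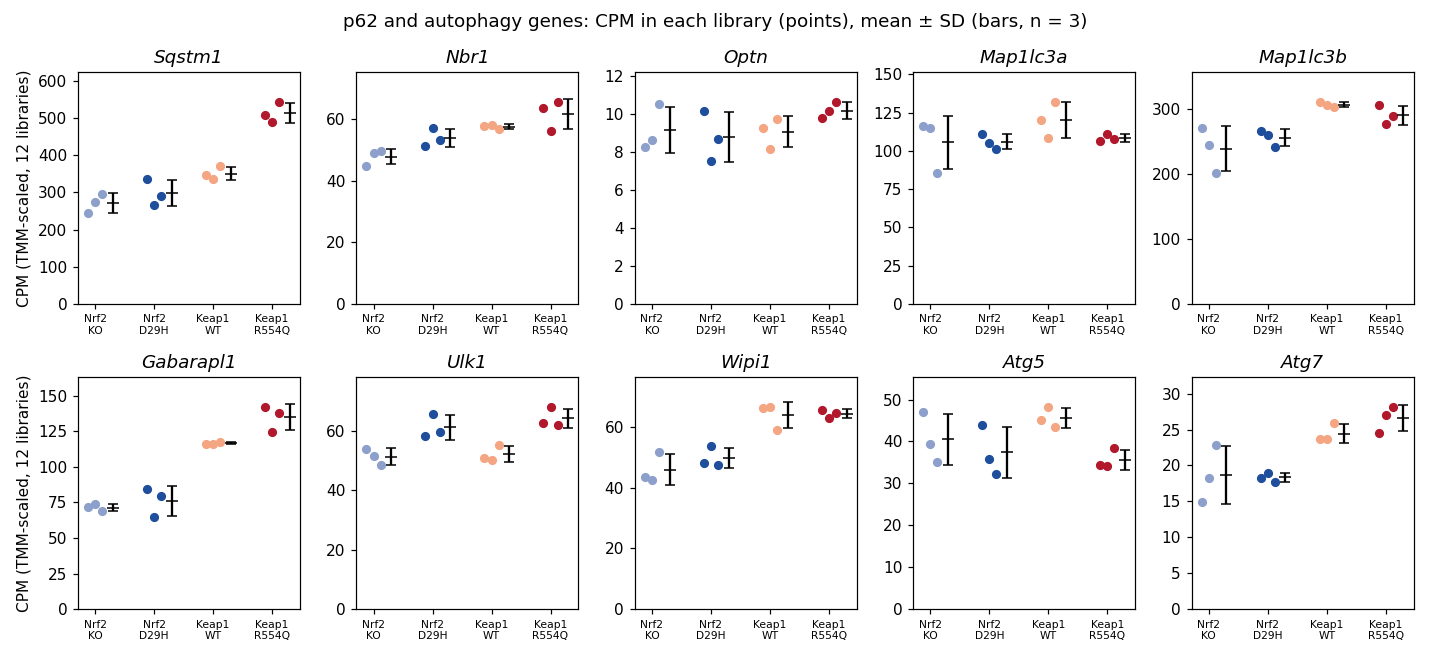
CPM of each of the 10 genes (vertical axes from 0, a separate scale for each gene) in the 3 libraries of each group, with the mean ± SD beside the points. Sqstm1 in Keap1 R554Q (490 to 543 CPM) lies above all other libraries. Gabarapl1, Atg7, Wipi1 and Map1lc3b are higher in every library of the Keap1 cells than in any of the Nrf2 cells.

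The first comparison asked which of these genes changed with Cre in the Keap1 cells. Sqstm1 and Ulk1 rose and Atg5 fell, so that 3 of the 10 passed edgeR's quasi-likelihood test (Benjamini-Hochberg adjusted p under 0.05, 3 against 3 libraries), beside 6.17% of the 14128 genes tested, 3.77% higher and 2.40% lower. The median log2 fold change of the 10 was 0.12, beside 0.00 over all genes tested. Only the Sqstm1 rise passed in all 16 other processing settings tried; the count of genes called ran from 1 to 3 over them.

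Sqstm1 (ENSMUSG00000015837, chr11:50199366-50210827, minus strand, GRCm38) encodes p62, the receptor that gathers ubiquitinated cargo into bodies. Its CPM was 509, 489.7 and 543 in the 3 R554Q libraries and 346, 336 and 369.9 in Keap1 wild type. Every R554Q library was above every wild-type library by more than the range within either group. The rise was 47.2%, a log2 fold change of 0.56 (SE 0.08, edgeR adjusted p = 0.000426), which ranked it 67 by p-value among the genes tested. Over the other settings the log2 fold change stayed between 0.50 and 0.60 and the adjusted p between 1.75e-10 and 0.00663. In the authors' deposited table it was 0.52 with an adjusted p of 6.46e-11. By comparison, the log2 fold change of the antioxidant genes Gclm and Srxn1 was 1.60 and 2.35 in these libraries.

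The other receptors moved less. Nbr1 (ENSMUSG00000017119, chr11:101552149-101581951, plus strand), a receptor related to p62 that also takes part in clearing protein aggregates, measured 63.5, 56.2 and 65.5 CPM in R554Q and 57.6, 58.2 and 56.9 in wild type. These groups overlapped, and the log2 fold change was 0.11 (SE 0.08, edgeR adjusted p = 0.464). Optn (ENSMUSG00000026672, chr2:5020642-5064051, minus strand), whose product optineurin serves the removal of damaged mitochondria and bacteria, lay at 9.77 to 10.6 CPM in R554Q and 8.16 to 9.75 in wild type. The groups did not overlap, by a margin small beside their spread, and Optn had a log2 fold change of 0.17 (SE 0.12, edgeR adjusted p = 0.411).

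Among the ATG8 genes none passed. Gabarapl1 (ENSMUSG00000030161, chr6:129533200-129542331, plus strand) measured 142, 125 and 138 CPM in R554Q and 116, 116 and 117 in wild type. Its groups did not overlap, and the log2 fold change was 0.22 (SE 0.08, edgeR adjusted p = 0.101, 0.0505 to 0.290 over the other settings). Map1lc3a (ENSMUSG00000027602, chr2:155276297-155278073, plus strand) lay at 106 to 111 CPM in R554Q and 109 to 132 in wild type, a log2 fold change of -0.14 (SE 0.08, edgeR adjusted p = 0.304). After correction for GC content and transcript length (an offset per gene and library) its value was -0.29 with an adjusted p of 0.0466. It has the highest GC content of the 10 genes, 63.1%. Map1lc3b (ENSMUSG00000031812, chr8:121590361-121598760, plus strand) lay at 276 to 306 CPM in R554Q and 303 to 310.3 in wild type, with a log2 fold change of -0.07 (SE 0.08, edgeR adjusted p = 0.608). It is a close relative of Map1lc3a and overlaps Zcchc14 on the opposite strand, whose counts amounted to 33.8% of its own; whether the authors' counting used strand is not given in the sources used here, so its level is uncertain.

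Ulk1 (ENSMUSG00000029512, chr5:110784488-110810097, minus strand), the kinase that starts autophagy when nutrients are short, measured 62.6, 67.8 and 62.01 CPM in R554Q and 50.8, 50.1 and 55.1 in wild type. All 3 R554Q libraries were above the highest wild-type library. The rise was 23.9%, a log2 fold change of 0.31 (SE 0.08, edgeR adjusted p = 0.0322). With those GC and length offsets it was 0.10 with an adjusted p of 0.443; Ulk1 has the longest listed transcript length of the 10, 5213 bases, and a GC content of 58.0%. It passed in 1 of the 6 fits that left out 1 library, that without R554Q replicate 3 (0.34, adjusted p = 0.00360). Leaving out R554Q replicate 1, R554Q replicate 2 or wild-type replicate 1, 2 or 3 gave adjusted p-values from 0.0624 to 0.157. In the authors' deposited table its adjusted p was 0.0150.

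Of the conjugation genes Atg5 passed and Atg7 did not. Atg5 (ENSMUSG00000038160, chr10:44268358-44364291, plus strand), whose product joins ATG12 to form the enzyme complex that attaches LC3 to lipid, measured 34.3, 34.0 and 38.4 CPM in R554Q and 45.2, 48.1 and 43.4 in wild type. The R554Q libraries were all below the lowest wild-type library. The fall was a log2 fold change of -0.35 (SE 0.09, edgeR adjusted p = 0.0245), or a change of -21.6%. It passed without R554Q replicate 3 (-0.40, adjusted p = 0.00128), but not in the fits without R554Q replicate 1, R554Q replicate 2 or wild-type replicate 1, 2 or 3 (0.0502 to 0.143) nor with GC and length offsets (-0.24, 0.0574). In the fit of all 12 libraries it was -0.36 with an adjusted p of 0.0754. Atg7 (ENSMUSG00000030314, chr6:114643097-114860614, plus strand), the enzyme that activates ATG12 and the ATG8 proteins, lay at 24.6 to 28.1 CPM in R554Q and 23.7 to 25.9 in wild type, with a log2 fold change of 0.13 (SE 0.09, edgeR adjusted p = 0.430). Wipi1 (ENSMUSG00000041895, chr11:109573331-109611967, minus strand), the lipid-binding protein, lay at 62.8 to 65.7 CPM in R554Q and 58.9 to 66.4 in wild type, with a log2 fold change of 0.02 (SE 0.08, edgeR adjusted p = 0.919).

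Counted without a test, the 3 R554Q and 3 wild-type libraries did not overlap for 4 genes that were higher (Sqstm1, Ulk1, Gabarapl1 and Optn) and 1 that was lower (Atg5); over all genes tested the shares were 13.3% and 14.2%.

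**Figure D2:**
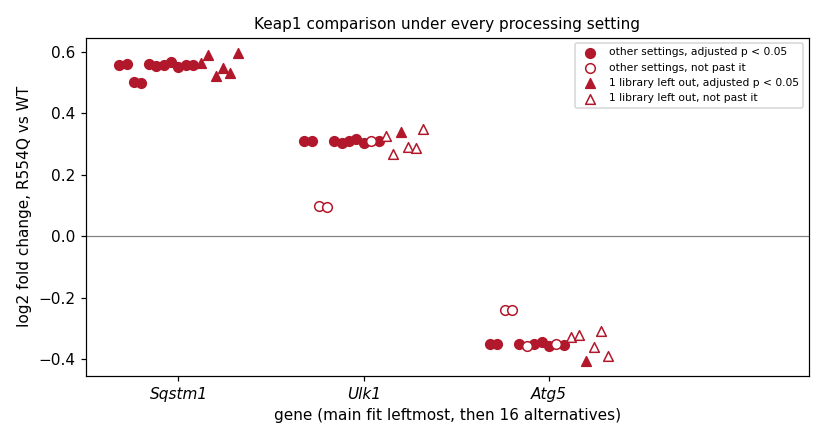
Log2 fold change of Sqstm1, Ulk1 and Atg5 in Keap1 R554Q against wild type, in the fit reported (leftmost point of each gene) and in 16 other settings; filled symbols have an adjusted p under 0.05 and triangles leave out 1 library. All Sqstm1 points are filled and lie between 0.50 and 0.60, while 8 of 16 other settings are filled for Ulk1 and 7 of 16 for Atg5.

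The second comparison asked the same of the Nrf2 cells, where Cre turns on NRF2 D29H in cells labelled knockout. None of the 10 genes passed edgeR's test (0 of 10, beside 4.75% of 14370 genes tested, 3.47% higher and 1.28% lower), and none passed in any of the 16 other settings, DESeq2 and limma included. At an unadjusted p under 0.05 there was 1 gene, Ulk1, beside 3293 of the 14370 genes tested. The median log2 fold change of the 10 was 0.09, beside 0.00 over all genes.

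Sqstm1 measured 337, 267 and 290.0 CPM in D29H and 243, 275 and 297 in the labelled knockout. Those groups overlapped, and the log2 fold change was 0.13 (SE 0.12, edgeR adjusted p = 0.522), from 0.03 to 0.21 over the other settings. Nqo1, Gclm and Srxn1 in the same libraries had log2 fold changes of 3.74, 1.08 and 1.66.

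Ulk1 measured 58.1, 65.7 and 59.4 CPM in D29H and 54.0, 51.4 and 48.3 in the labelled knockout, so that all 3 D29H libraries were the higher. The log2 fold change was 0.25 (SE 0.10, edgeR adjusted p = 0.133), and the lowest of the other settings was 0.0591. Nbr1 did not overlap either, at 51.2, 57.0 and 53.3 CPM against 44.9, 48.9 and 49.6, with a log2 fold change of 0.17 (SE 0.10, edgeR adjusted p = 0.301). No gene was lower without overlap. These 2 of 10 non-overlapping higher genes stand beside 12.7% of all genes tested that were higher without overlap and 12.9% that were lower.

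The other 7 genes had overlapping groups and log2 fold changes between -0.12 and 0.12. Wipi1 (0.12, SE 0.10), Map1lc3b (0.10, SE 0.11), Gabarapl1 (0.09, SE 0.11) and Map1lc3a (0.00, SE 0.11) were at or above 0. Atg7 (-0.02, SE 0.13), Optn (-0.05, SE 0.15) and Atg5 (-0.12, SE 0.12) were below it. Several of these rested on labelled knockout replicate 3, the shallowest library, in which Map1lc3a was 85.6 CPM beside 116 and 115 in the other two, Map1lc3b 201 beside 271 and 244, and Atg7 22.9 beside 14.9 and 18.2. Without that library Map1lc3a measured -0.12, Map1lc3b 0.00, Atg7 0.15 and Optn 0.06.

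**Figure D3:**
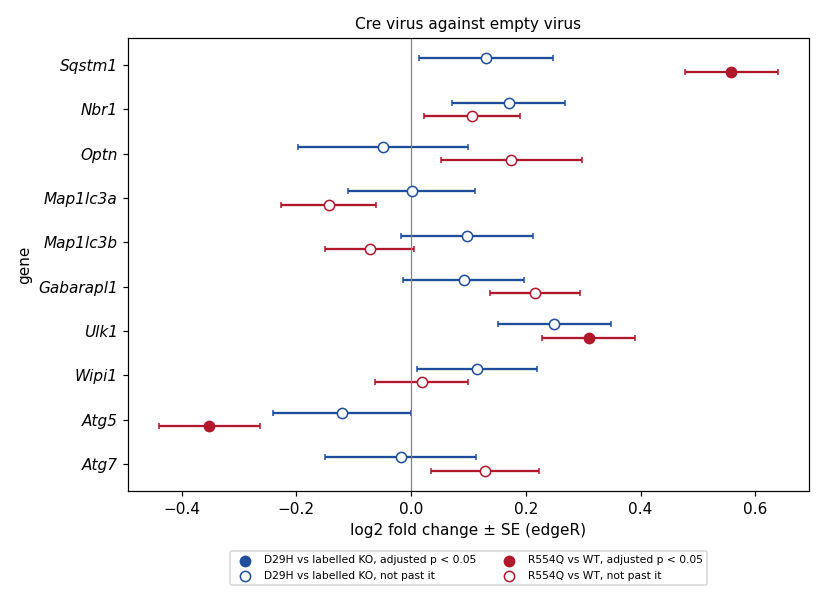
Log2 fold change ± SE (edgeR) of each of the 10 genes for Cre against empty virus, in the Nrf2 cells (blue) and the Keap1 cells (red); filled points have an adjusted p under 0.05. The filled points are Sqstm1 (0.56), Ulk1 (0.31) and Atg5 (-0.35) in the Keap1 cells, and all points of the Nrf2 cells are open.

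A gene that passed in the Keap1 cells and not in the Nrf2 cells is not thereby shown to respond differently, so the difference of the effects was tested in a fit of all 12 libraries. No gene of the 10 passed edgeR's test there (0 of 10, beside 0.027% of 14794 genes, or 4 genes, 0.00676% higher and 0.0203% lower). Sqstm1 was nearest: the effect of Cre in the Nrf2 cells minus that in the Keap1 cells was -0.42 (SE 0.14), with an unadjusted p of 0.00685 and an edgeR adjusted p of 0.305. Over the 21 other settings that difference ran from -0.54 to -0.35, always below 0, with adjusted p-values from 0.0761 to 0.625. The other 9 genes had differences between -0.21 (Optn, SE 0.19) and 0.24 (Atg5, SE 0.16), with edgeR adjusted p-values of 0.588 or higher. For Ulk1 the difference was -0.05 (SE 0.12), and with GC and length offsets it was 0.10.

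The empty-virus groups differed from each other in these genes. In the labelled Nrf2 knockout 6 of the 10 were lower than in Keap1 wild type and 0 were higher by edgeR's test, beside 10.1% of 14794 genes lower and 9.58% higher (19.7% in all), and the median log2 fold change of the 10 was -0.31 beside -0.01 over all genes. The cell stock, the allele and the table of origin change together in this contrast and cannot be told apart. Macrophage and fibroblast markers summed higher in the labelled knockout and epithelial markers lower, as given above, and their part was not tested. Such sums follow the most abundant markers and do not give the direction of each one. In bulk RNA a change in the number of cells of a type cannot be told apart from a change in RNA per cell.

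Gabarapl1, an ATG8 protein of the GABARAP branch, measured 71.5, 73.7 and 69.0 CPM in the labelled knockout and 116, 116 and 117 in Keap1 wild type, without overlap. Its log2 fold change was -0.71 (SE 0.09, edgeR adjusted p = 8.07e-06). Wipi1 measured 43.6, 42.5 and 51.7 CPM against 66.1, 66.4 and 58.9, a log2 fold change of -0.48 (SE 0.09, edgeR adjusted p = 0.000544). Both passed in all 21 other settings.

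The other 4 falls were smaller and depended on single libraries. Sqstm1 (-0.37, SE 0.10, edgeR adjusted p = 0.0105) measured -0.32 (0.0687) without wild-type replicate 3 and -0.29 (0.0690) without labelled knockout replicate 1. Map1lc3b (-0.36, SE 0.10, 0.0105) measured -0.25 (0.0544) without labelled knockout replicate 3 and had an adjusted p of 0.0510 without wild-type replicate 1. Atg7 (-0.40, SE 0.12, edgeR adjusted p = 0.0207) measured -0.26 (0.157) without labelled knockout replicate 1 and also did not pass without labelled knockout replicate 2 or wild-type replicate 3. Nbr1 (-0.27, SE 0.09, edgeR adjusted p = 0.0285) did not pass in 6 of the 12 fits that left out 1 library, in which its log2 fold change ran from -0.30 to -0.22. Map1lc3a (-0.18, SE 0.10, edgeR adjusted p = 0.233) did not pass, but had -0.26 and an adjusted p of 0.0234 with GC and length offsets. Atg5 (-0.17, SE 0.11), Ulk1 (-0.02, SE 0.09) and Optn (0.00, SE 0.14) did not pass.

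Between the Cre groups, D29H was lower than R554Q for 4 of the 10 genes and higher for 0 by edgeR's test, beside 13.4% of all genes lower and 13.1% higher (26.5% in all). Those 4 passed in all 21 other settings. Gabarapl1 measured 84.8, 64.6 and 79.3 CPM in D29H against the R554Q values given above, with no overlap and a log2 fold change of -0.82 (SE 0.09, edgeR adjusted p = 9.52e-07). Sqstm1 was 42.0% lower by fold change (log2 -0.79, SE 0.10, edgeR adjusted p = 4.75e-06), and its highest D29H library, at 337 CPM, was far below the lowest R554Q library. Atg7 measured 18.3, 19.0 and 17.7 CPM against 24.6, 27.1 and 28.1, a log2 fold change of -0.53 (SE 0.12, edgeR adjusted p = 0.00193). Wipi1 had a log2 fold change of -0.37 (SE 0.09, edgeR adjusted p = 0.00397). Nbr1 (-0.20, SE 0.08, adjusted p = 0.0897) passed only in the fit without R554Q replicate 2 (-0.26, 0.0404). This contrast too joins stock, allele and table, and the macrophage, fibroblast and muscle sums were higher and the neural and epithelial sums lower in D29H. Here too the sums do not give the direction of each marker, and their part was not tested.

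Arranged by mean CPM, Sqstm1, Nbr1, Gabarapl1 and Wipi1 had the order R554Q, Keap1 wild type, D29H, labelled knockout. For Sqstm1 the step from R554Q to wild type was free of overlap and the later steps were not; its highest group mean was 1.89 times its lowest. For Gabarapl1, also 1.89 times, both steps above D29H were free of overlap and D29H overlapped the labelled knockout. In Wipi1 the only step without overlap lay between Keap1 wild type and D29H, and in Nbr1 between D29H and the labelled knockout. Ulk1 had another order, with both Cre groups on top (R554Q 64.1 ± 3.19 CPM, SD, n = 3; D29H 61.0 ± 4.08) and both empty-virus groups below (wild type 52.0 ± 2.69; labelled knockout 51.2 ± 2.82). Its Cre groups overlapped each other, as did its empty-virus groups. Neighbours in the order of Atg5, Map1lc3a and Optn overlapped at every step.

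**Figure D4:**
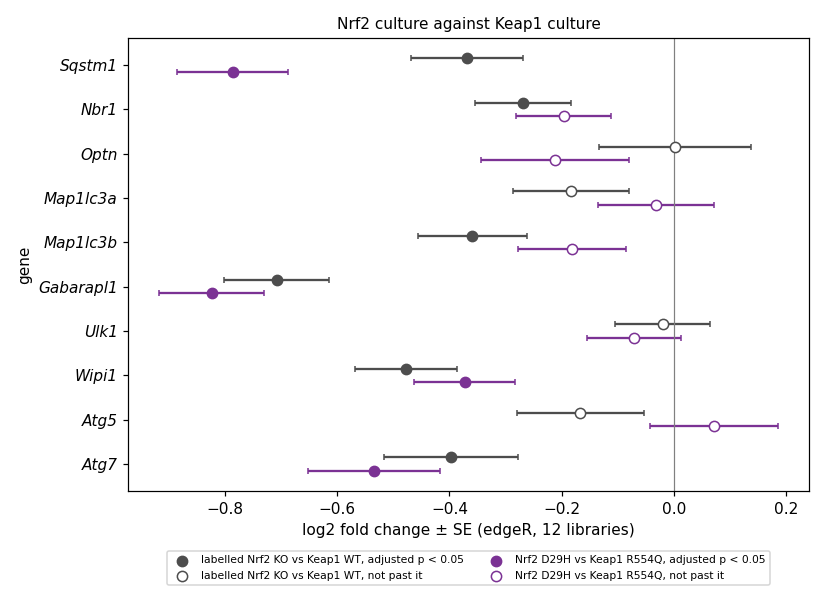
Log2 fold change ± SE (edgeR, fit of 12 libraries) of each of the 10 genes between the Nrf2 and Keap1 cells, for the empty-virus groups (grey) and the Cre groups (purple); filled points have an adjusted p under 0.05. Gabarapl1 lies at -0.71 and -0.82 and Sqstm1 at -0.37 and -0.79, and no filled point is above 0.

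The rest of the autophagy machinery was followed through 63 other genes in 8 lists by role: initiation, the PI3K complex, membrane supply, conjugation, the ATG8 family, receptors, fusion, and the lysosome with its TFEB family regulators. In the Keap1 cells 3 of the 63 rose and 2 fell by edgeR's test, beside the 6.17% of all genes given above, with a median log2 fold change of -0.04. In the Nrf2 cells 1 rose and 0 fell, beside 4.75% of all genes, with a median of -0.06. Both counts were unstable. In the Keap1 cells the count ran from 0 (GC and length offsets with a replicate block) to 22 (without R554Q replicate 3). Over all genes those fits called 501 of 14060 and 2872 of 14391. In the Nrf2 cells the count ran from 0 to 13 (without D29H replicate 1, beside 2192 of 14608 genes).

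Atg12, the ubiquitin-like partner of ATG5, fell with it in the Keap1 cells: 59.1, 55.4 and 56.3 CPM in R554Q against 72.7, 80.9 and 68.7 in wild type. Its log2 fold change was -0.37 (SE 0.08, edgeR adjusted p = 0.0150), and it passed in 13 of 16 other settings. Bnip3, a receptor of mitophagy and a known hypoxia target, fell from 42.3, 43.8 and 37.6 CPM in wild type to 32.7, 32.9 and 30.8 in R554Q (-0.35, SE 0.09, edgeR adjusted p = 0.0263). These groups did not overlap in either gene.

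Of the 3 that rose, the receptor gene Calcoco1 measured 56.0, 51.0 and 55.8 CPM in R554Q against 44.0, 40.7 and 46.1 (0.32, SE 0.08, edgeR adjusted p = 0.0316). Tfe3, a transcription factor of lysosomal genes, measured 63.2, 57.1 and 57.1 CPM against 48.5, 48.1 and 50.1 (0.28, SE 0.08, edgeR adjusted p = 0.0478). Tecpr1, which acts in fusion with the lysosome, measured 54.8, 57.2 and 43.2 CPM against 41.5, 36.8 and 43.3, with R554Q replicate 3 inside the wild-type range (0.36, SE 0.10, edgeR adjusted p = 0.0463). Each call was lost in some settings: Bnip3 and Calcoco1 passed in 9 of 16, and Tecpr1 and Tfe3 in 5 of 16. With GC and length offsets the log2 fold changes were -0.16 for Bnip3, 0.17 for Calcoco1, 0.14 for Tecpr1 and 0.18 for Tfe3, with edgeR adjusted p-values from 0.152 to 0.358. In the fits that left out 1 library, Atg12 passed in 4 of 6, Bnip3 and Calcoco1 in 2 of 6, and Tecpr1 and Tfe3 in 1 of 6.

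The gene that rose in the Nrf2 cells was Wdfy3, which encodes ALFY, a scaffold that works with p62 in aggregate clearance. It measured 85.1, 129.6 and 119.6 CPM in D29H against 80.5, 86.0 and 77.4 in the labelled knockout, a log2 fold change of 0.45 (SE 0.12, edgeR adjusted p = 0.0330), and D29H replicate 1 lay inside the labelled-knockout range. Its highest library, D29H replicate 2, was also that with the highest mitochondrial share. With GC and length offsets it was 0.16 with an adjusted p of 0.246. It passed in 3 of the 6 fits that left out 1 library, and not in those without D29H replicate 2, D29H replicate 3 or labelled knockout replicate 2.

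By role, no gene passed in either pair of groups among the 4 of initiation, the 8 of the PI3K complex, the 8 of membrane supply and the 2 other ATG8 genes. Of the 16 lysosomal and TFEB genes 1 of 16 passed in the Keap1 cells (Tfe3) and 0 in the Nrf2 cells. Between the stocks more genes passed: of the 63, 12 were lower and 1 higher in the labelled knockout than in Keap1 wild type (6 to 16 in all over the other settings), beside 10.1% and 9.58% of all genes. In D29H 18 were lower and 6 higher than in R554Q (11 to 30 in all), beside 13.4% and 13.1% of all genes. In that last contrast 8 of the 16 lysosomal and TFEB genes were lower and 1 was higher, and between the empty-virus groups 2 of the 16 were lower and 1 was higher, to be read against the same shares of all genes. Calcoco1 was among the lower genes in both, at -0.38 (SE 0.08, edgeR adjusted p = 0.00237) and -0.53 (SE 0.08, 5.8e-05). None of the 63 passed the test of the difference between the effects of Cre (0 with edgeR, 7 at an unadjusted p under 0.05 beside 1668 of all 14794 genes, and 1 with DESeq2 beside 53 of all genes).

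**Figure D5:**
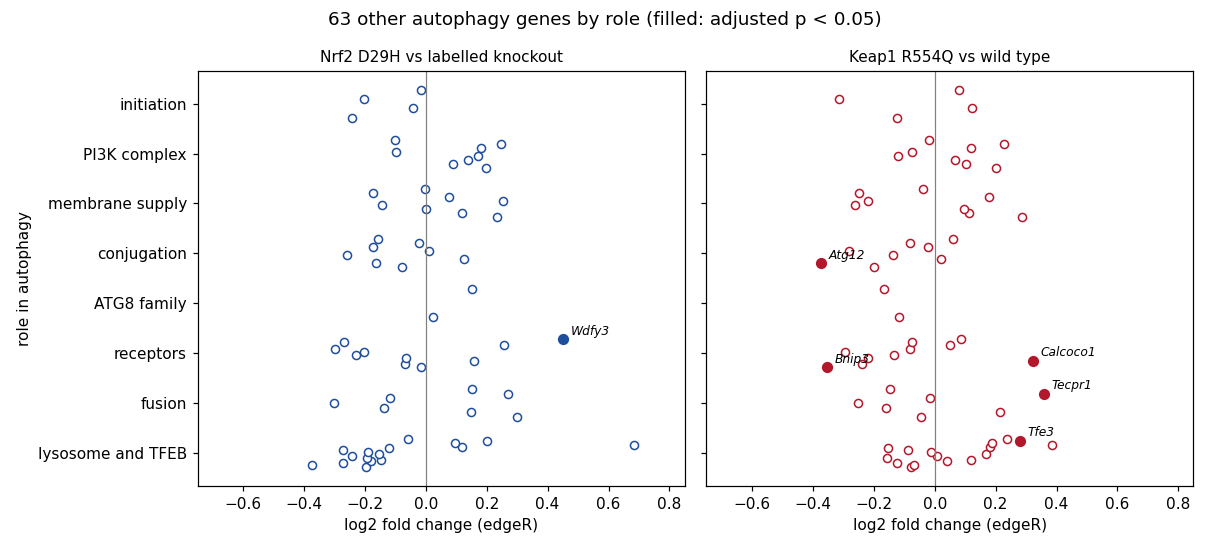
Log2 fold change (edgeR) of 63 other autophagy genes, a row for each role, in Nrf2 D29H against the labelled knockout (left) and Keap1 R554Q against wild type (right); filled, named points have an adjusted p under 0.05. There is 1 filled point on the left (Wdfy3, 0.45) and 5 on the right, from Atg12 (-0.37) to Tecpr1 (0.36), with the other points on both sides of 0.

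The protein-coding genes whose log2 CPM followed that of Sqstm1 most closely over the 12 libraries, of 9075 genes with a mean of at least 10 CPM, were Abhd4 (Pearson r = 0.990), Maoa (0.974), 1190002N15Rik (0.973), Taldo1 (0.973) and Zadh2 (0.970). These correlations describe libraries that share groups and stocks, and they carry no test. Taldo1, an enzyme of the pentose phosphate pathway, had a mean of 263 CPM in R554Q, 155 in Keap1 wild type, 149 in D29H and 128 in the labelled knockout. Maoa, a monoamine oxidase, had means of 245, 136, 82.6 and 66.9 CPM in the same order of groups.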

How the data were processed

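RNA of 12 fibroblast libraries was made into NEBNext Ultra libraries, per the labels' protocols. The submitters' processing notes name STAR, DESeq2 and the mouse build mm10; counting tool, annotation and use of strand are not given in the sources used here. Each table the authors deposited gives unnormalised read counts and FPKM for every gene and library. The deposited tables also hold the authors' group means (a signal of normalised counts), log2 fold changes and p-values, per the file headers; these entered no test here.

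Counts were tested in R 4.3.3 with edgeR 4.0.16: filterByExpr, TMM scaling, quasi-likelihood F test, Benjamini-Hochberg adjustment over all genes tested, and a call at an adjusted p under 0.05. Each Cre comparison used the 6 libraries of its own table. Differences between cell stocks and the difference of the effects came from 1 fit of all 12 libraries over 14794 genes. Standard errors were obtained from each log2 fold change and its F statistic (fold change over the root of F). The tests were also run on simulated counts, whose outcome is not reported here, so no statement on power is made. DESeq2 1.42.0, limma 3.58.1 (log2 CPM, prior count 2), RLE and upper-quartile scaling, other filters, a replicate block, offsets for GC content and length (lowess span 0.3; GC known for 99.5% of genes) and leaving out each library were the alternatives. The 10 genes, the 63 other genes and the markers were chosen with earlier results of these data known. Besides these, the genes named are other autophagy genes called with Cre, Nfe2l2, Nqo1, Gclm and Srxn1, and the 5 most like Sqstm1. Promoter windows come from RefSeq, and no entry of Map1lc3a was used.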

Additional observations from a re-analysis of the deposited data

How the results depend on the processing

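The counts of the 10 genes called were 0 in the Nrf2 cells and 0 for the difference of the effects in all settings run. In the Keap1 cells the count of 3 became 1 with a replicate block and 1 at an adjusted p under 0.01, and it ran from 1 to 3 when 1 library was left out. Between the empty-virus groups 6 became 7 with GC and length offsets, with or without the block, and 2 at an adjusted p under 0.01. With 1 library left out the count ran from 3 to 6, with 3 reached without Keap1 wild-type replicate 3 and without labelled knockout replicate 1. Between the Cre groups 4 became 5 without R554Q replicate 2 and otherwise stayed at 4 with 1 library left out.

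Over all genes, in the Nrf2 cells 682 became 1195 with no filter, 138 at an adjusted p under 0.01, and 82 (without D29H replicate 3) to 2192 (without D29H replicate 1) with 1 library left out. In the Keap1 cells 872 became 1502 with no filter, 527 with GC and length offsets, 501 with offsets and block, 484 with the block alone, 242 at an adjusted p under 0.01, and 238 (without R554Q replicate 1) to 2872 (without R554Q replicate 3). The cause was not tested. For the difference of the effects, 4 calls over all genes became 53 with DESeq2.

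The labels do not say whether equal replicate numbers mark paired samples. Same-numbered libraries deviated from their group means with correlations of -0.10 to -0.03 in the Nrf2 table and -0.22 to 0.04 in the Keap1 table. For unlike numbers the correlations ran from -0.03 to 0.10 and from -0.20 to 0.23. With 3 libraries in each group these values cannot decide whether samples were paired. Under the replicate block Sqstm1 still passed in the Keap1 cells, while Ulk1 (0.31, edgeR adjusted p = 0.0825) and Atg5 (-0.35, 0.0619) did not.

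Of 1046 values of single genes under alternatives, 939 kept direction and side of the threshold, 74 lost and 5 gained a call, and 28 changed sign, of which 0 were called in either fit. In the Nrf2 cells Map1lc3a changed sign with DESeq2 (-0.00186), RLE scaling (-0.00225), no filter (-0.011), the offsets (-0.056) and the offsets with block (-0.056), and ran from -0.12 to 0.070 with 1 library left out. Atg7 did with a mean count of at least 50 (0.00152) and upper-quartile scaling (0.00516), and ran from -0.16 to 0.15 with 1 library left out. Map1lc3b ran from -0.00385 to 0.20 and Optn from -0.17 to 0.060 in those fits. In the Keap1 cells Wipi1 changed sign with the offsets (-0.020) and offsets with block (-0.017) and ran from -0.038 to 0.051. In the difference of the effects Ulk1 did with the offsets (0.095) and offsets with block (0.096), and Atg7 ran from -0.28 to 0.022. Between the empty-virus groups Ulk1 ran from -0.058 to 0.031, and Optn from -0.10 to 0.069 and was -0.00183 with the offsets. Between the Cre groups Ulk1 was 0.00136 with the offsets and 0.000395 with offsets and block, and Atg5 ran from -0.070 to 0.17. Optn had the fewest CPM of the 10 genes and the largest SE in each comparison; the part of depth in this was not tested.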
